A study of Drosophila melanogaster with 3 samples.

Results

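The odorant, gustatory and ionotropic receptor genes of Drosophila melanogaster were examined in a map of binding by the protein Row. Members were the protein-coding genes whose symbol is Or, Gr or Ir followed by a number and an optional letter in the Ensembl annotation. The rule found 179 genes of 13968 protein-coding genes on 7 chromosome arms, namely 59 Or, 60 Gr and 60 Ir genes. Orco, the co-receptor of the odorant receptors, carries no number in its symbol and was described apart. Binding had been measured by ChIP-seq, which sequences the DNA that is pulled down with a protein, in whole embryos aged 0 to 24 h of the strain row-GFP. These embryos make Row fused to enhanced green fluorescent protein (row-eGFP) from an insertion targeting row, and the pull-down used an antibody against GFP on chromatin sonicated to a range of 200 to 800 bp. There were 3 biological replicates of this single group, from separate biosamples of 1 transgenic line, so no treated or mutant group stands against them. The control experiment that the labels name as possible was not analysed here.

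Odorant receptors are ligand-gated ion channels of olfactory neurons that work with the co-receptor Orco. Most gustatory receptors serve taste neurons, where they respond to sugars, bitter compounds or, for a pair of antennal members, carbon dioxide. Ionotropic receptors descend from synaptic glutamate receptors and sense acids, amines, temperature and humidity. Most sensory neurons express 1 or a few of these genes and leave the others silent, and many are used only in larval or adult sense organs. Row (relative of woc) has zinc fingers and acts with the related protein WOC and with the heterochromatin protein homologue HP1c, both of which are found at the promoters of active genes.

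The data were lists of peaks. Each peak has a summit, which is the position of its highest point, and a signal value given by the authors' peak caller. A summit within 500 bp of a transcription start site (TSS) of a gene is called a promoter summit below. Thresholded lists hold the peaks that repeat between 2 lists at an irreproducible discovery rate (IDR) of at most 0.01, and ranked lists hold weaker peaks too. The conservative list, with 10483 peaks, was thresholded on replicates 1 and 2. The replicates' own thresholded lists held 10959, 8567 and 7635 peaks in replicates 1, 2 and 3. Their ranked lists held 64663, 29028 and 29654 peaks. Read depth is unknown, so the difference in list length between replicates cannot be assigned to depth or to enrichment. In whole embryos, binding in few cells and weak binding in many cannot be told apart.

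A selection of the sequences under peaks at receptor promoters is shown first. Gr97a and Ir31a are shown because their peaks are counted in the conservative list, Or10a for a peak of replicate 3 and Gr39b for a peak of the pooled list. All are from the dm6 assembly (RefSeq, Release 6), read 5′ to 3′ on the strand of the receptor. Motifs searched are in capitals. For Gr97a (chr3R:26966727-26966929, minus strand) and Ir31a (chr2L:10405204-10405371, plus strand) the stretch begins at the first base past the neighbour's TSS and runs toward the receptor. The summit of the conservative list is base 63 of the Gr97a stretch and base 28 of the Ir31a stretch. The Gr97a stretch held none of the 7 motifs searched, and the Ir31a stretch held CGATA, the core of the site of the boundary protein BEAF-32. For Or10a (chrX:11417789-11417989, minus strand) and Gr39b (chr2L:21369918-21370118, minus strand) the stretch is centred on the summit of the thresholded list of replicate 3 and of the pooled thresholded list. In each the summit is base 101, and the stretch holds none of the motifs.
Gr97a: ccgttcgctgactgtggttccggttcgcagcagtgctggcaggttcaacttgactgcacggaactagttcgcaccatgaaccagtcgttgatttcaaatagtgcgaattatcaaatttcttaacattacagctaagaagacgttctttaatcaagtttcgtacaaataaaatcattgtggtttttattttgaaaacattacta
Ir31a: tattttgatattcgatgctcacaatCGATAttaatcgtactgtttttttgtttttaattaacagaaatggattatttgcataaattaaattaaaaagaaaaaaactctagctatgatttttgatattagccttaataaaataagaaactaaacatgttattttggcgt
Or10a: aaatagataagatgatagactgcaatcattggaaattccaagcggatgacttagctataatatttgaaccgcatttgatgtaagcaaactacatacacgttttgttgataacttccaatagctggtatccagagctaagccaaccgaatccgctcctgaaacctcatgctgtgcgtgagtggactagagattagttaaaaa
Gr39b: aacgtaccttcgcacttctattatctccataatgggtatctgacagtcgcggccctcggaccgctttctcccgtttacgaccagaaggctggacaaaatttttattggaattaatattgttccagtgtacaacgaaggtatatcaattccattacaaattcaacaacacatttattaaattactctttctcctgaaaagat

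Few receptor genes had a promoter summit in any replicate. The thresholded list of replicate 1 had a promoter summit at 3 of 179 receptor genes (1.68%), against 40.3% of all protein-coding genes. In replicate 2 the count was 2 receptor genes (1.12%), against 32% of all genes. In replicate 3 it was 5 receptor genes (2.79%), against 32.8% of all genes. Over the 3 replicates the share was 1.86% ± 0.853 of receptor genes and 35.0% ± 4.57 of all protein-coding genes (SD, n = 3 each), so the shares of the receptors lay below those of all genes in each of the replicates. In the conservative list the count was 3 receptor genes, beside 36.4% of all genes. The pooled thresholded list, whose copied intervals match almost none of any single replicate, had 5 receptor genes (2.79%), beside 42.7% of all genes.

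**Figure D1:**
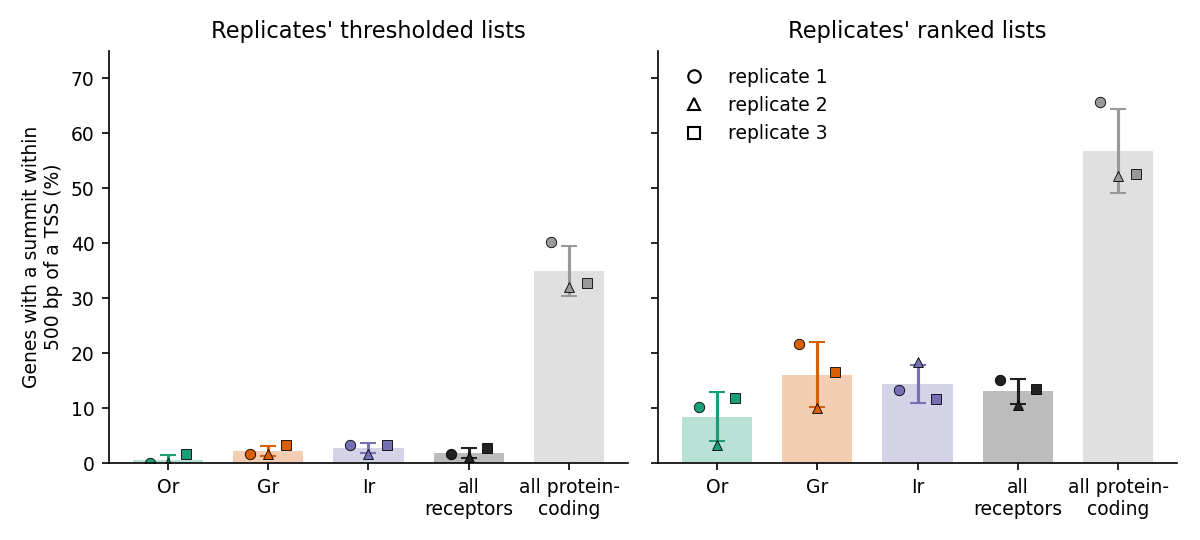
Percentage of genes with a summit within 500 bp of a TSS, for the Or, Gr and Ir families, all 179 receptor genes and all protein-coding genes, in the thresholded (left) and ranked (right) lists of the replicates. Bars are means, error bars SD and points the 3 replicates; receptors lie between 1.12% and 2.79% in the thresholded lists, while all genes lie at 32.0% or above.

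By family, the conservative list had a promoter summit at 0 of 59 Or genes, 1 of 60 Gr genes and 2 of 60 Ir genes. The means over the replicates' own thresholded lists were 0.565% ± 0.979 of Or genes, 2.22% ± 0.962 of Gr genes and 2.78% ± 0.962 of Ir genes (SD, n = 3 each). Within this spread Gr overlapped both Or and Ir, while Or and Ir did not overlap. These shares rest on 0 to 2 genes per family and list. The replicates' lists had 0, 0 and 1 Or gene, 1, 1 and 2 Gr genes, and 2, 1 and 2 Ir genes in replicates 1, 2 and 3.

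In the conservative list no receptor gene had a promoter summit for which its own TSS was the nearest, beside 28.2% of all protein-coding genes, or 3945 genes. The same count was 0, 0 and 2 receptor genes in replicates 1, 2 and 3, the last being Or10a and Gr10a, which share a TSS. The receptors with a promoter summit in the conservative list all lay head to head with a gene of another kind, with the peak between both TSSs and close to the neighbour.

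Gr97a (FBgn0041224, chromosome 3R, 26965124 to 26966485, minus strand) is a member of the gustatory family. The signal at its promoter was 375, 135 and 164 in replicates 1, 2 and 3. The ranks of this peak, where rank 1 is the strongest peak of a thresholded list, were 1061, 3935 and 2798. The summit lay 392, 349 and 371 bp upstream of the TSS of Gr97a in these replicates. The TSS of CG5521, which lies 445 bp upstream of that of Gr97a on the other strand, was 53, 96 and 74 bp from the summit. In the conservative list the peak had a signal of 671 and rank 2150, and its summit was 382 bp upstream of Gr97a and 63 bp from CG5521, in the intergenic stretch printed above. The peak was in all 3 replicates and nearer to CG5521 in each.

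Ir31a (FBgn0051718, chromosome 2L, 10405565 to 10408197, plus strand) encodes a receptor of antennal olfactory neurons. Signals of 107, 51.8 and 79.7 were given for it in replicates 1, 2 and 3, with ranks of 5117, 8018 and 5364. The summits lay 319, 271 and 336 bp upstream of Ir31a. LSm-4, which encodes an Sm-like protein of the U6 RNA complex, and CG17768 share a TSS 362 bp upstream of that of Ir31a, on the other strand. That TSS was 43, 91 and 26 bp from the summits. Each replicate had the peak, and in replicate 2 it ranked among the weaker peaks. The conservative list gave it a signal of 237 and rank 6009, with the summit 28 bp from the TSS of LSm-4. A weaker peak 133 bp upstream of Ir31a, nearest to its own TSS, was in the pooled thresholded list and in that of replicates 2 and 3, with a signal of 20.5. In the ranked list of replicates 1 and 2 its IDR was 0.695.

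Ir60b (FBgn0259185, chromosome 2R, 24515685 to 24517458, plus strand) encodes a receptor of pharyngeal taste neurons that respond to sucrose. Its signal was 73.2 in replicate 1 and 89.6 in replicate 3, with ranks of 7234 and 4883. In replicate 2 no peak at this promoter passed the threshold, and the ranked list held one with a signal of 42.9 and an IDR of 0.0516. Letm1, which encodes a cation transporter of the inner mitochondrial membrane, has a TSS 365 bp upstream of that of Ir60b on the other strand. The summits lay 2, 12 and 43 bp from that TSS in replicates 1, 2 and 3. In the conservative list the signal was 202, the rank 6820 and the distance to the TSS of Letm1 3 bp. The peak was thus found in all 3 replicates only when the ranked lists were included.

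**Figure D2:**
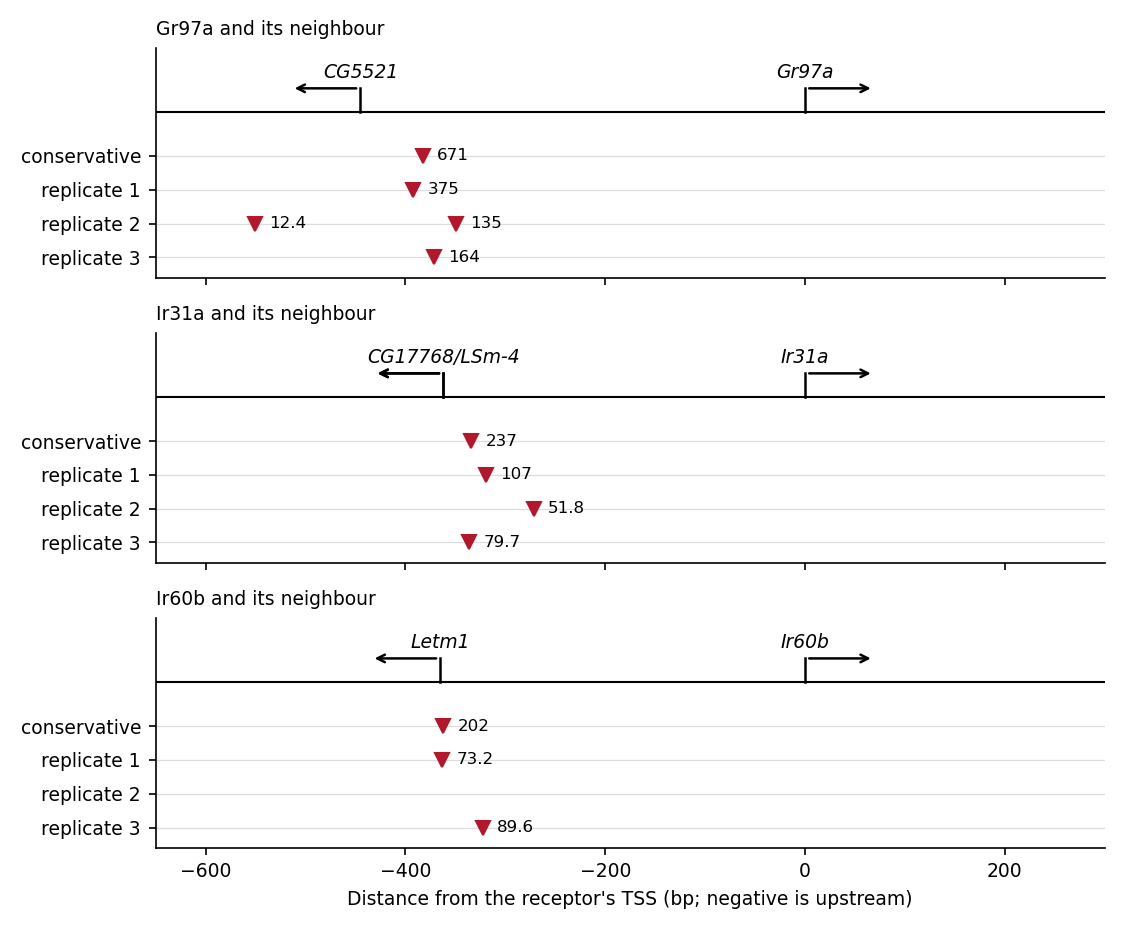
Maps of the promoters that Gr97a, Ir31a and Ir60b share with neighbouring genes, in bp from the receptor's TSS (negative is upstream), with arrows for the direction of transcription. Triangles mark summits of the conservative list and of each replicate's thresholded list, with the signal beside them; the triangles lie near the neighbour's TSS, and replicate 2 has none at Ir60b and a second, weaker one at -550 bp at Gr97a.

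Or10a and Gr10a (chromosome X, 11413467 to 11417422, minus strand) are annotated with the same span and TSS, so that 1 peak counts for both. Or10a encodes an antennal receptor for aromatic odours, and Gr10a is known to be expressed in the same neurons. In replicate 3 a peak with a signal of 59.0 and rank 6575 had its summit 467 bp upstream of this TSS, which was the nearest of any protein-coding gene. The ranked list of replicate 1 had a summit 433 bp upstream with a signal of 28.2 and an IDR of 0.549, and replicate 2 had none within the window. Stronger peaks of the conservative list lay further upstream, at 1029 bp with a signal of 150 and at 1996 bp with a signal of 272. The peak within the window passed the threshold in replicate 3 only.

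The pooled thresholded list added Gr39b and Gr21a. Gr21a was named after its values were seen. Gr39b (chromosome 2L, 21367908 to 21369706, minus strand) had a pooled signal of 93.0 with the summit 312 bp upstream and its own TSS the nearest. In replicate 2 the ranked list held it with a signal of 44.0 and an IDR of 0.0210, and in replicate 3 with a signal of 33.2 and an IDR of 0.0783. Replicate 1 had no summit in the window. Its IDR was 0.408 in the ranked list of replicates 1 and 2 and 0.00554 in that of replicates 2 and 3. Gr21a (chromosome 2L, 780482 to 782885, plus strand) encodes a subunit of the carbon dioxide receptor. Its pooled signal was 135, in its own 5′ UTR and 275 bp upstream of the nearer of its 2 TSSs. The ranked lists had it with signals of 37.5 in replicate 2 and 28.6 in replicate 3, and not in replicate 1. Both genes were thus marked by weak peaks in replicates 2 and 3 and not in replicate 1.

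The distance to other promoters was counted next. Of the 179 receptor genes, 22 (12.3%) had the TSS of another protein-coding gene within 500 bp, against 30.8% of all genes. Among these 22 genes 3 (13.6%) had a promoter summit in the conservative list, beside 62.3% of all genes with such a neighbour. Among the other 157 receptor genes none had one, beside 24.9% of all genes without such a neighbour. The share was thus below that of all genes in either setting. In 10 of the 22 genes the neighbour was another receptor. These were the divergent pairs Gr58a and Gr58b, with 183 bp between their TSSs, and Gr59e and Gr59f, with 131 bp, and genes annotated with a common TSS, namely Gr64b with Gr64c, Gr64d with Gr64e, and Or10a with Gr10a. None of these 10 had a promoter summit in the conservative list.

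The other 12 receptors had 13 neighbours of other kinds within 500 bp, all of them head to head with the receptor at the closest pair of TSSs. Besides Gr97a, Ir31a and Ir60b they were 9 genes with no promoter summit in the conservative list, listed in full after their values were seen. JMJD5, of the jumonji family, lay 91 bp from Gr61a, a sugar receptor. Lamtor4, of a lysosomal signalling complex, lay 297 bp from Gr63a, the other subunit of the carbon dioxide receptor. Cyp9h1, a cytochrome P450, lay 107 bp from Or49b, and CG34025 lay 485 bp from Or63a. Spn85F, of the serpin family, lay 374 bp from Gr85a. Grd, a subunit of a GABA-receptor type of channel, lay 499 bp from Ir75c, and CG14102 lay 39 bp from Ir76a. These 7 neighbours had no promoter summit in the conservative list either. The transcription factor gene p53 lay 459 bp from Gr94a and CG13585 lay 322 bp from Ir60e. Their summits were at other TSSs of the neighbour, 2443 bp from Gr94a with a signal of 247 and 840 bp from Ir60e with a signal of 349. Of the 13 neighbours, 6 had a promoter summit in the conservative list. The same held for 36.4% of all protein-coding genes and 62.3% of those with another TSS within 500 bp.

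The nearest summit of the conservative list lay a median of 10143 bp from the TSS of a receptor gene, with a range of 334 to 90031 bp. Over the 13945 protein-coding genes on arms with a summit the median was 2355 bp. The medians in the replicates' own lists were 10935, 10100 and 11466 bp for receptors in replicates 1, 2 and 3, a mean of 10834 ± 689 bp. For all genes they were 1896, 3145 and 3355.5 bp, a mean of 2799 ± 789 bp (SD, n = 3 each). The ranges of the replicates did not overlap. By family the median was 15079 bp for Or genes, 7538.5 bp for Gr genes and 7288.5 bp for Ir genes in the conservative list. Within 5000 bp of a summit lay 55 receptor genes (30.7%), against 63.5% of all genes. By family these were 10 Or genes (16.9%), 25 Gr genes (41.7%) and 20 Ir genes (33.3%). Within 1000 bp were 6 receptor genes (3.35%), against 40.8% of all genes. Those beyond the promoter window were Or88a at 704 bp, Gr32a at 730 bp and Ir60e at 840 bp, named here after their values were seen.

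**Figure D3:**
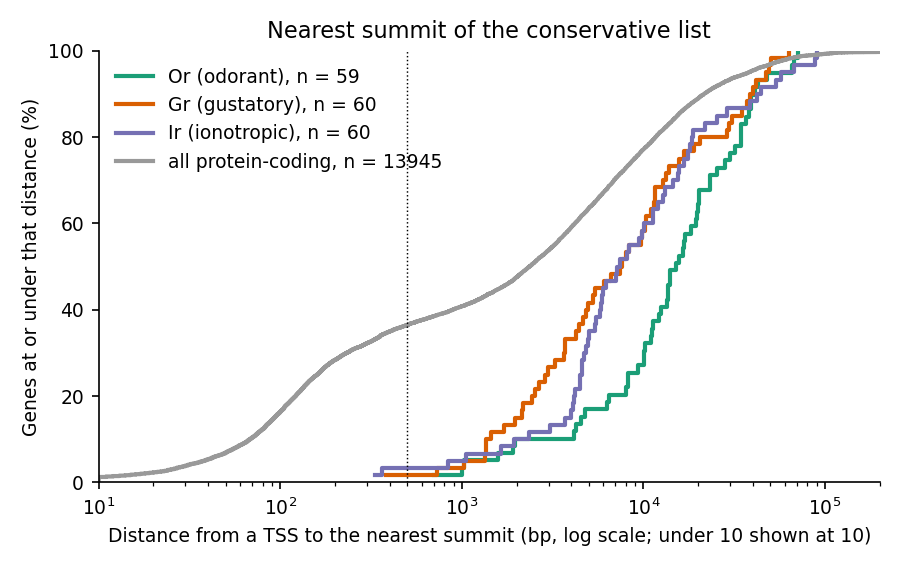
Cumulative percentage of genes by the distance in bp (log scale) from a TSS to the nearest summit of the conservative list, for Or, Gr and Ir genes and all protein-coding genes. The dotted line marks 500 bp. The first receptor gene lies at 704 bp for Or, 382 bp for Gr and 334 bp for Ir. The medians are 15079 bp for Or, 7538.5 bp for Gr and 7288.5 bp for Ir, against 2355 bp for all genes.

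The larger distance held on each arm that carries receptor genes. The median was 16870 bp for the 31 receptor genes on 2L against 2958 bp for all genes there, and 8997 bp for the 46 on 2R against 2566.5 bp. It was 8276 bp for the 35 on 3L against 2325 bp, 10236 bp for the 42 on 3R against 2519 bp, and 7041 bp for the 25 on X against 1449.5 bp. Many receptor genes stand in clusters, and for 66 of them the nearest other TSS was that of a receptor. The median distance to a summit was 11162.5 bp for these and 10090 bp for the 113 whose nearest other TSS belonged to another gene. Both medians lay above that of all genes. The TSS of the nearest other gene was a median of 2154 bp away for receptors and 1375.5 bp for all genes.

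The bodies of the receptor genes held no summit. They cover 467 kb in all, of which 178 kb is intron, and the count was 0 in the conservative list and in the thresholded list of each replicate. Over the bodies of all protein-coding genes there were 63.6 summits per Mb in the conservative list and 66.9, 50.8 and 43.1 per Mb in replicates 1, 2 and 3. In introns the conservative list had 84.3 summits per Mb over all genes. Exons had fewer for their length, with 953 summits over 33651 kb of all genes, and 289 kb of the receptor bodies is exon. Of the receptor intron, 144 kb is in Ir genes, of which Ir41a alone spans 104437 bp. Receptor genes are short, with a median length of 1691 bp against 2164.5 bp for all genes. The pooled thresholded list had 1 summit inside a receptor gene, which is that of Gr21a.

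Of the receptor genes, 25 lie wholly inside the span of another protein-coding gene. None of them had a promoter summit in the conservative list, beside 36.4% of all protein-coding genes. Their median distance to a summit was 13830 bp, against 10052.5 bp for the 154 others. The direction was not shared by the families. The median was 20055.5 bp for 10 nested Or genes against 13707 bp for the other Or genes, 9960 bp for 6 nested Gr genes against 7538.5 bp, and 5495 bp for 9 nested Ir genes against 8375 bp. Of the 24 host genes, 12 (50%) had a promoter summit in the conservative list, beside the same 36.4% of all genes. Ir51b lies inside row itself, the gene that encodes the protein mapped here, and its nearest summit was 5733 bp away. It was named after its values were seen.

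Weaker peaks were sought in the ranked lists. Replicate 1 had a promoter summit at 27 receptor genes (15.1%), beside 65.6% of all genes. Replicate 2 had one at 19 receptor genes (10.6%), beside 52.2% of all genes, and replicate 3 at 24 (13.4%), beside 52.5%. The mean was 13.0% ± 2.26 of receptor genes and 56.8% ± 7.66 of all genes (SD, n = 3 each). The ranked list of replicates 1 and 2 had 21 receptor genes (11.7%), of which 1 was an Or, 11 Gr and 9 Ir genes, beside 56.9% of all genes. The pooled ranked list had 36 (20.1%), of which 6 were Or, 19 Gr and 11 Ir genes, beside 65.9% of all genes. In the lists of the replicates the receptors had a lower share than all genes each time.

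The ranked peaks of receptors recurred in few cases, counted here as any summit within the window. A promoter summit was present in all 3 replicates' ranked lists at 4 receptor genes (2.23%), namely Gr97a, Ir31a, Ir60b and Ir60e, against 6136 protein-coding genes (43.9%). It was present in 2 replicates at 11 receptor genes, in 1 at 36 and in none at 128 (71.5%), against none for 28.3% of all genes. In none of the 7 ranked lists was there a promoter summit at 118 receptor genes (65.9%), against 25.4% of all genes. These were 45 Or genes such as Or13a and Or19a, 32 Gr genes such as Gr10b and Gr22a, and 41 Ir genes such as Ir100a and Ir11a. The nearest summit of the conservative list was 9290 bp from Or13a, 16793 bp from Or19a, 5261 bp from Gr10b, 41712 bp from Gr22a, 4488 bp from Ir100a and 53969 bp from Ir11a.

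The peaks at receptor promoters also ranked low. A rank percentile of 0 is the strongest peak of a list and 100 the weakest. The median percentile of the strongest promoter summit per gene was 53.6 for receptors against 11.4 for all genes in replicate 1. It was 65.4 against 20.0 in replicate 2 and 62.4 against 16.4 in replicate 3. At a percentile of 50 or below lay 48.1%, 36.8% and 41.7% of the receptors with a ranked promoter summit in replicates 1, 2 and 3, against 90.5%, 80.9% and 83.7% of such genes overall. In each replicate the median receptor peak lay in a weaker part of the list than the median over all genes.

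**Figure D4:**
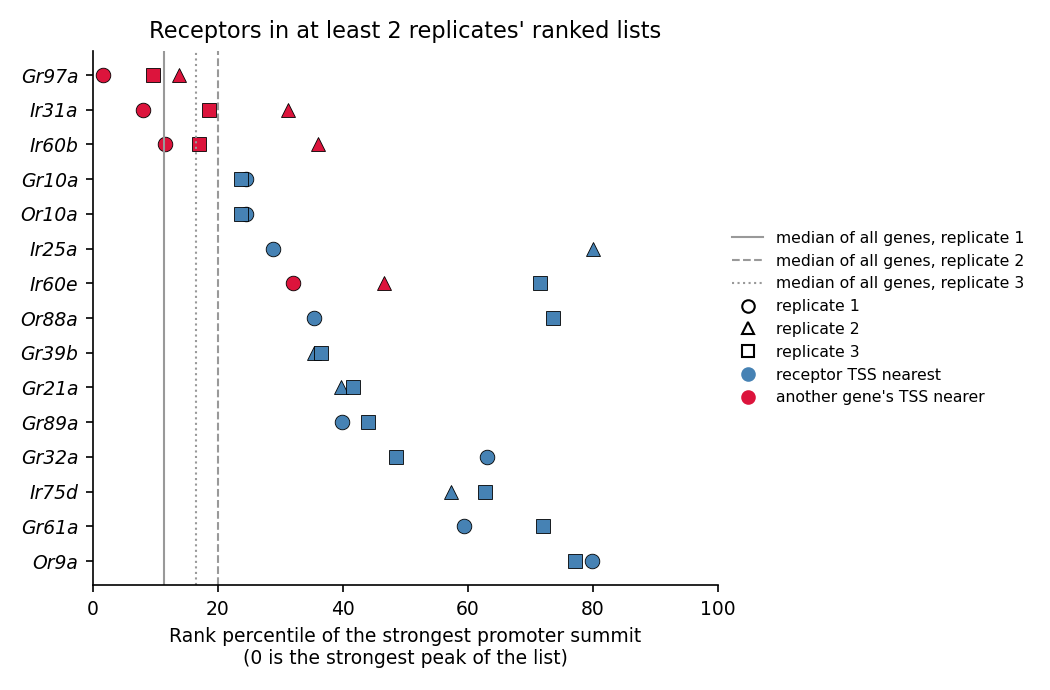
Rank percentile (0 is the strongest peak) of the strongest promoter summit in the ranked list of each replicate, for the 15 receptor genes present in at least 2 of them. Colour shows whether the receptor's TSS or that of another gene is nearer, and grey lines are the medians of all protein-coding genes; Gr97a, Ir31a and Ir60b have the lowest values in replicate 1, at 1.68, 8.10 and 11.6, and are nearer to another gene throughout. The genes shown were chosen by their presence.

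The ranked list of replicates 1 and 2 was then read for the members with no promoter summit in the conservative list or a replicate's thresholded list, of which Gr39b, described above, had the strongest. Ir76a, a receptor of coeloconic antennal neurons, followed with a signal of 55.1 and an IDR of 0.171, with the summit 261 bp from the TSS of CG14102, which is nearer. Replicate 1 alone of the replicates had it, with a signal of 17.1. Gr89a, a receptor of bitter neurons, had a signal of 51.1 and an IDR of 0.332, in the coding sequence of the caspase gene Decay. Summits in Decay had ranked signals of 16.6 in replicate 1 and 27.0 in replicate 3, and replicate 2 had no summit in the window. A separate summit in the coding sequence of Gr89a had 37.9 in the list of replicates 1 and 2 and 17.1 in replicate 1. Ir60e had a signal of 43.3 and an IDR of 0.0719, with the summit 61 bp from CG13585, and summits on that side of its TSS had ranked signals of 21.1 in replicate 1 and 30.3 in replicate 2. A separate summit in the coding sequence of Ir60e had 18.2 in replicate 1 and 17.9 in replicate 3. Ir60e thus had a promoter summit in each replicate, though not the same one.

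Or9a, an antennal odorant receptor, had a signal of 41.8 and an IDR of 0.695 in its coding sequence, with 6.57 in replicate 1 and 16.8 in replicate 3. Ir25a, the most widely used co-receptor of the Ir family, had a signal of 41.2 and an IDR of 0.695 in the 3′ UTR of tank, where replicate 1 had 23.4. A separate summit in the coding sequence of Ir25a had 36.6 in that list, 4.74 in replicate 1 and 16.9 in replicate 2. Gr63a had 38.5 in its coding sequence, Ir10a 37.6 in its coding sequence, Gr61a 32.6 in its 5′ UTR and Gr77a 29.3 in an intron of CG13252, each with an IDR of 0.695. At these strongest summits of the 6 genes the receptor's own TSS was the nearest. Weaker ones lay nearer to a neighbour for Gr61a, with 24.0 at 1 bp from JMJD5, and for Gr63a, with 14.6 at 141 bp from Lamtor4. In replicate 1, the only replicate with Gr63a, its strongest summits were also nearer to Lamtor4, with 21.3 at 80 bp and 15.3 at 132 bp. None of the 6 genes had a promoter summit in all 3 replicates' ranked lists. Or88a, Gr32a and Ir75d, which had summits in 2 replicates, are named for that presence alone. Their highest ranked signals in a replicate were 19.2, 24.7 and 23.8.

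By known role, the conservative list had a promoter summit at 0 of 27 odorant receptors of larvae and 0 of 12 receptors of trichoid sensilla, which include pheromone receptors. Counts were also 0 of 9 sugar receptors, 0 of 5 core bitter receptors and 0 of 2 carbon dioxide receptors. The antennal Ir genes had 1 of 17, which was Ir31a, and the 3 Ir co-receptors Ir8a, Ir25a and Ir76b, which are among them, had 0. Of the 43 other Ir genes Ir60b was the 1 with a summit. The share of all genes in the conservative list, 36.4%, is the background of these counts. In the ranked lists of replicates 1, 2 and 3 the sugar receptors had 2, 2 and 1 of 9 and the larval odorant receptors 1, 0 and 1 of 27, beside 65.6%, 52.2% and 52.5% of all genes. The lists are small, with 2 to 43 genes each.

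Promoter sequence was compared from 250 bp upstream to 50 bp downstream of each gene's 5′ end, with both strands searched. The letters TATAAA, a form of the TATA box, were in 54.2% of receptor promoters against 45.8% of all promoters. By family the share was 78.0% of Or, 30.0% of Gr and 55.0% of Ir promoters. At the place of a TATA box, 45 to 15 bp upstream on the gene's strand, it was in 15.3% of Or, 3.33% of Gr and 6.67% of Ir promoters, against 8.74% of all promoters. Most of the matches in Or promoters thus lay elsewhere in the window or on the other strand, as counted from the annotated 5′ end. At Or85f a summit 18 bp downstream of that end was already in coding sequence. Where the true start lies further upstream than annotated, a TATA box at its place would be missed, which was not tested. At the place of a TATA box the letters were in 2.79% of genes with a promoter summit in the conservative list and 12.2% of those without. The 150 bases upstream of Or13a (chrX:15974275-15974424, plus strand) and Or19a (chrX:20143189-20143338, minus strand) are shown with the match in capitals. Neither gene had a promoter summit in any ranked list. Both matches begin more than 45 bp upstream, so neither is counted at the place of a TATA box.
Or13a: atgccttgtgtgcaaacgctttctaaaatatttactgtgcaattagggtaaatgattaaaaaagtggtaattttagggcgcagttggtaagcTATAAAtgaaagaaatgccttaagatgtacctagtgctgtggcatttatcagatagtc
Or19a: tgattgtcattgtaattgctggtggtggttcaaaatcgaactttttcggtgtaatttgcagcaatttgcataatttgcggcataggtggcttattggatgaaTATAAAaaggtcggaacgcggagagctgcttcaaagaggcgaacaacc

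The other 6 motifs were each in a smaller share of receptor promoters than of all promoters. TATCGATA, the site of DREF, was in 1 of 179 receptor promoters (0.559%) against 9.36% of all promoters. GGTCACAC, a core of the M1BP site, was in 0 receptor promoters against 7.69% of all. CGATA, which TATCGATA contains, was in 33.5% against 47.3%, and the E-box CAGCTG in 9.50% against 17.6%. GAGAGAG, the letters of the GAGA factor, was in 1.12% against 5.86%, and the repeat CACACACA was in 1.12% against 4.02%. Of the protein-coding genes with a promoter summit in the conservative list, 16.3% held TATCGATA and 12.9% GGTCACAC, against 5.41% and 4.69% of those without. GAGAGAG and CACACACA went the other way, with 5.25% and 3.67% of genes with a promoter summit against 6.21% and 4.21% of those without. Median GC content was 39.3% in receptor promoters against 38.0% in all promoters. A match shows only that the letters are present in the window.

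**Figure D5:**
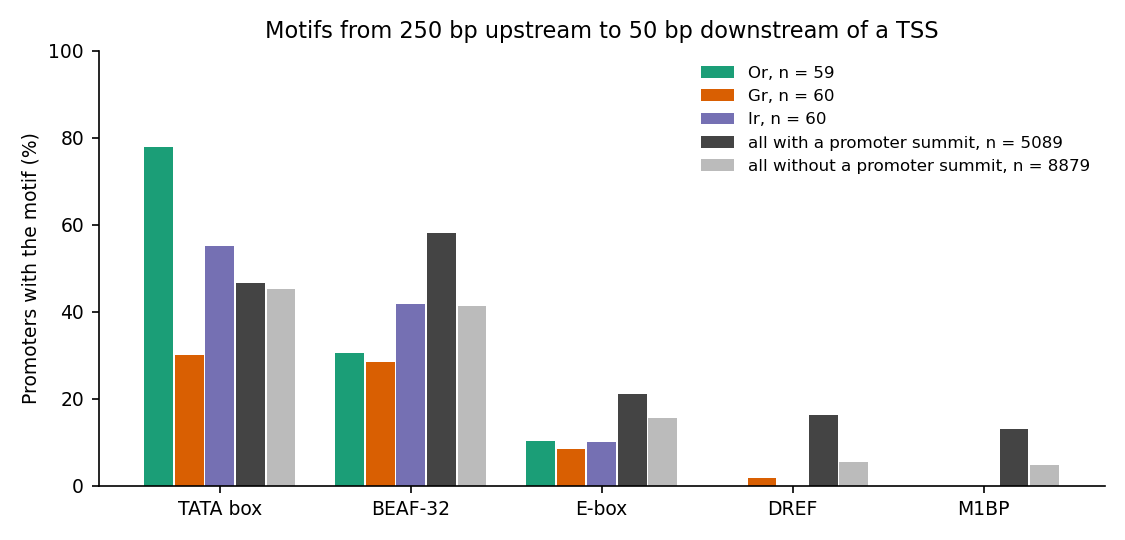
Percentage of promoters (250 bp upstream to 50 bp downstream of the 5′ end, both strands) that hold each of 5 motifs, for Or, Gr and Ir genes and for all protein-coding genes with and without a promoter summit in the conservative list. The TATA box letters are in 78.0% of Or promoters, and the DREF and M1BP letters are in 1 and 0 receptor promoters.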

How the data were processed

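The authors deposited IDR-ranked and IDR-thresholded peak lists on dm6, per the labels, with 1 pair of lists per replicate and further pairs for the series. Neither aligner nor caller is given in the sources used here. Each deposited signal value is the enrichment of a peak as the authors' caller wrote it, used only to describe and rank peaks within a list. The deposited −log10 of the global IDR was converted to IDR. Intervals copied into the ranked lists matched 88.8% of peaks to replicate 1 and 67.2% to replicate 2 for the list behind the conservative one, which set its identity. Of the conservative peaks, 99.8% had the interval, summit and signal of a peak of the pooled ranked list. The labels do not say which replicates were pooled, so replicate 3 may not be independent of the signal values of the conservative list. Lists of replicates 1 and 3 and of replicates 2 and 3 were identified the same way.

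Genes and TSSs came from Ensembl release 115 and sequence from RefSeq. Both are of the dm6 assembly, and all peaks lay within its arms. Counting used Python 3.11.15 and NumPy 2.4.6 and was tested on simulated data. Members and lists were chosen with earlier results of these data known, so no test was made and shares of all protein-coding genes stand beside the counts. Named are receptors with a promoter summit in the conservative or a replicate's thresholded list, the 10 others with the highest ranked signal in the list of replicates 1 and 2, the first 2 of each family without any, and neighbours with a nearer TSS. Replicates are separate biosamples, and SDs give the spread between their lists.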

Additional observations from a re-analysis of the deposited data

How the results depend on the processing

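No paired analysis was possible because there is a single group. For all receptors, the promoter count of 3 was 0 with a window of 250 bp, 6 with 1000 bp, 1 among the stronger 50% of the list by signal, 5 in the pooled list and in the list of replicate 3, 0 with only the nearest gene counted and 0 among genes with no other TSS within 500 bp. The other 7 settings gave 2 to 4 receptors. Over all protein-coding genes the share of 36.4% became 30.7% with 250 bp, 40.7% with 1000 bp and 26.0% among the stronger 50%. It was 42.7% in the pooled list and 32.8% in replicate 3. With only the nearest gene counted it was 28.2%, and without close neighbours 24.9%. In the other 7 settings it lay between 32.0% and 41.0%. The same shares stand beside the family counts. For Or genes the 0 became 1 with 1000 bp, with the peak interval in place of the summit and in replicate 3. For Gr genes the 1 became 0 with 250 bp, with the nearest gene and without close neighbours, 2 with 1000 bp and in replicate 3, and 3 in the pooled list. For Ir genes the 2 became 0 with 250 bp, among the stronger 50%, with the nearest gene and without close neighbours, and 1 in replicate 2. Leaving replicate 1 or 2 out of the IDR comparison gave 3 for all receptors and 0 for Or genes. It gave 1 to 2 for Gr and 1 to 2 for Ir genes. Unlike the conservative list, these lists use replicate 3, and their peaks carry the signal values of the pooled list. They are thus not independent of the conservative list. Receptors with their own TSS nearest numbered 0, or 3 in the pooled list and 2 in replicate 3, and 0 to 2 with a replicate left out. Over all genes that share was 28.2%, or 33.7% in the pooled list and 25.1% in replicate 3, and 27.8% to 29.0% with a replicate left out. Summits in gene bodies numbered 0, or 1 in the pooled list. The median distance of 10143 bp became 14381 bp among the stronger 50% and 8276 bp in the pooled list. It was 10935 bp in replicate 1, 11466 bp in replicate 3 and 9698 to 11227 bp with a replicate left out. Over all genes the median of 2355 bp became 5196 bp among the stronger 50% and 1369 bp in the pooled list. It was 1896 bp in replicate 1, 3355.5 bp in replicate 3 and 2339 to 2554 bp with a replicate left out. The ranked count of 21 became 13 with 250 bp, 31 with 1000 bp and 9 among the stronger 50%. Over all genes the share of 56.9% became 48.9%, 63.4% and 51.8% in these settings. The distance has no window, so window settings do not apply to it. Read depth, which is unknown, limits what weak peaks can show.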

Other observations

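Other genes of the chemical senses were also described in the conservative list, beside 36.4% of all protein-coding genes with a promoter summit. Of 51 genes for odorant-binding proteins, which carry odorants in the fluid around sensory neurons, 2 had a promoter summit. Obp83g had a signal of 636 and was in all 3 replicates' thresholded lists, and Obp99b had 136 and was in replicate 1 only. None of 20 CheA and CheB genes and none of 6 ppk channel genes of taste neurons had one, nor had Orco, Snmp1 or Snmp2. Of 11 ionotropic glutamate receptors, the synaptic relatives of the Ir family, GluRIIB was the 1 with a promoter summit, with a signal of 127 in the conservative list and a place in the list of replicate 1.

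Among 18 genes for regulators of receptor choice and sensory neuron fate, 4 (22.2%) had a promoter summit. Xbp1, a transcription factor of the unfolded protein response, had a signal of 1520 with its own TSS the nearest, in all 3 replicates. The repressor genes mip130 and E2f2 had 1055 and 232 in all 3 replicates, with the TSS of Edem1 and of Mpp6 nearer to these strongest summits. The strongest summit of mip130 was 368 bp from its TSS, and another lay 159 bp from a TSS of mip130. With every promoter summit counted, 3 of the 4 genes had one to which their own TSS was the nearest. The eye selector gene ey had 191, with its own TSS nearest, in replicates 1 and 3. Counts in the thresholded lists of replicates 1, 2 and 3 were 6, 3 and 5 of 18, beside 40.3%, 32% and 32.8% of all genes.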
